A study of Homo sapiens with 6 samples.

Results

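The 58 genes described here write or erase methyl groups on histone lysines, or belong to the core of the complexes that do so. They were taken by symbol from the 58302 entries of the deposited gene table, and all 58 were among the 15063 genes that passed the filter on low counts. The cells were Ker-CT, a single line of human keratinocytes made immortal by telomerase together with CDK4. The labels give 3 libraries with siRNA against KMT2C (siKMT2C) and 3 with negative-control siRNA (siNC). All 6 cultures, controls included, had also received the cytokine mixture M5 (TNF-α, IL-1α, IL-22, IL-17A and oncostatin M at 10 ng/ml apiece) for 24 h, a model of psoriatic keratinocytes per the labels' protocols. The comparison therefore addresses KMT2C depletion in stimulated cells only, and the labels do not say whether the replicates were separate cultures, so p-values measure the spread between these libraries.

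Methyl groups on histone lysines mark the state of chromatin: methylation of H3K4 marks promoters and enhancers, H3K36 and H3K79 mark transcribed genes, and H3K9, H3K27 and H4K20 methylation is tied mainly to silent or compacted chromatin. SET-domain enzymes and DOT1L write these marks, and the flavin-dependent KDM1 enzymes and the Jumonji enzymes erase them. KMT2C and its close paralog KMT2D monomethylate H3K4 at enhancers in a complex that holds WDR5, RBBP5, ASH2L and DPY30, together with PAXIP1, PAGR1, NCOA6 and the H3K27 demethylase KDM6A. In epidermis, PRC2, KDM6B, KMT2D and KMT5A are known regulators of the balance between progenitor growth and differentiation.

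The libraries held 14409277 to 17539519 counts. All 11 keratinocyte markers were detected, with summed levels of 15714 to 21712 CPM (counts scaled to library size, with TMM factors) in siKMT2C and 16717 to 24454 CPM in siNC. The summed markers of other cell types were low: 13.5 to 17.5 CPM in siKMT2C and 20.7 to 31.1 in siNC for fibroblasts, 6.67 to 8.35 and 6.99 to 15.1 for melanocytes, 12.9 to 14.6 and 8.93 to 13.8 for immune cells. For endothelial cells they were 2.95 to 3.73 and 8.98 to 10.5, and KDR in that list was called lower. TYR, DCT, SOX10, PTPRC, CD3E, PECAM1 and CDH5 had no count in any library. The part of these cells in the results was not tested. One library stood furthest apart: siNC replicate 3 deviated from the mean of all 6 libraries with the GC content of the transcript. On the log2 scale its median deviation was -0.28 in the genes of at most 42.15% GC and 0.38 in those of at least 56.39% GC. In smaller measure siKMT2C replicate 3 went the same way (-0.10 and 0.14). The others went the opposite way: siNC replicate 1 (0.18 and -0.19), siKMT2C replicate 2 (0.15 and -0.18), siNC replicate 2 (0.069 and -0.054) and siKMT2C replicate 1 (0.031 and -0.052). Values without siNC replicate 3 are given for the members where it lay furthest from the other controls or where it changed a call.

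Among the 58 genes, 2 were called: KMT2C fell and SETD7 rose (edgeR adjusted p under 0.05 over all genes tested). That is 3.45% of the members, against 1.5% of all genes tested (0.69% higher, 0.81% lower). KMT2C was the target of the siRNA, and without KMT2C 1 of 57 members was called (1.75%). The other 56 were not called, and their log2 fold changes ran from -0.88 for KMT5C to 0.65 for NSD2. The median log2 fold change of the 58 was -0.07, and that of all genes tested was 0.00 to the second decimal. In 18 members (31.0%) the 3 siKMT2C values all lay on the same side of the 3 siNC values, 6 higher and 12 lower. KMT2C aside, this held for 17 of 57 (29.8%). The share over all genes was 24.1% (11.8% higher, 12.3% lower). The same 2 members were called by limma-voom (1.41% of all genes) and without a filter (1.04%), while DESeq2 called 4 (5.67%) and a replicate block 7 (6.43%).

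**Figure D1:**
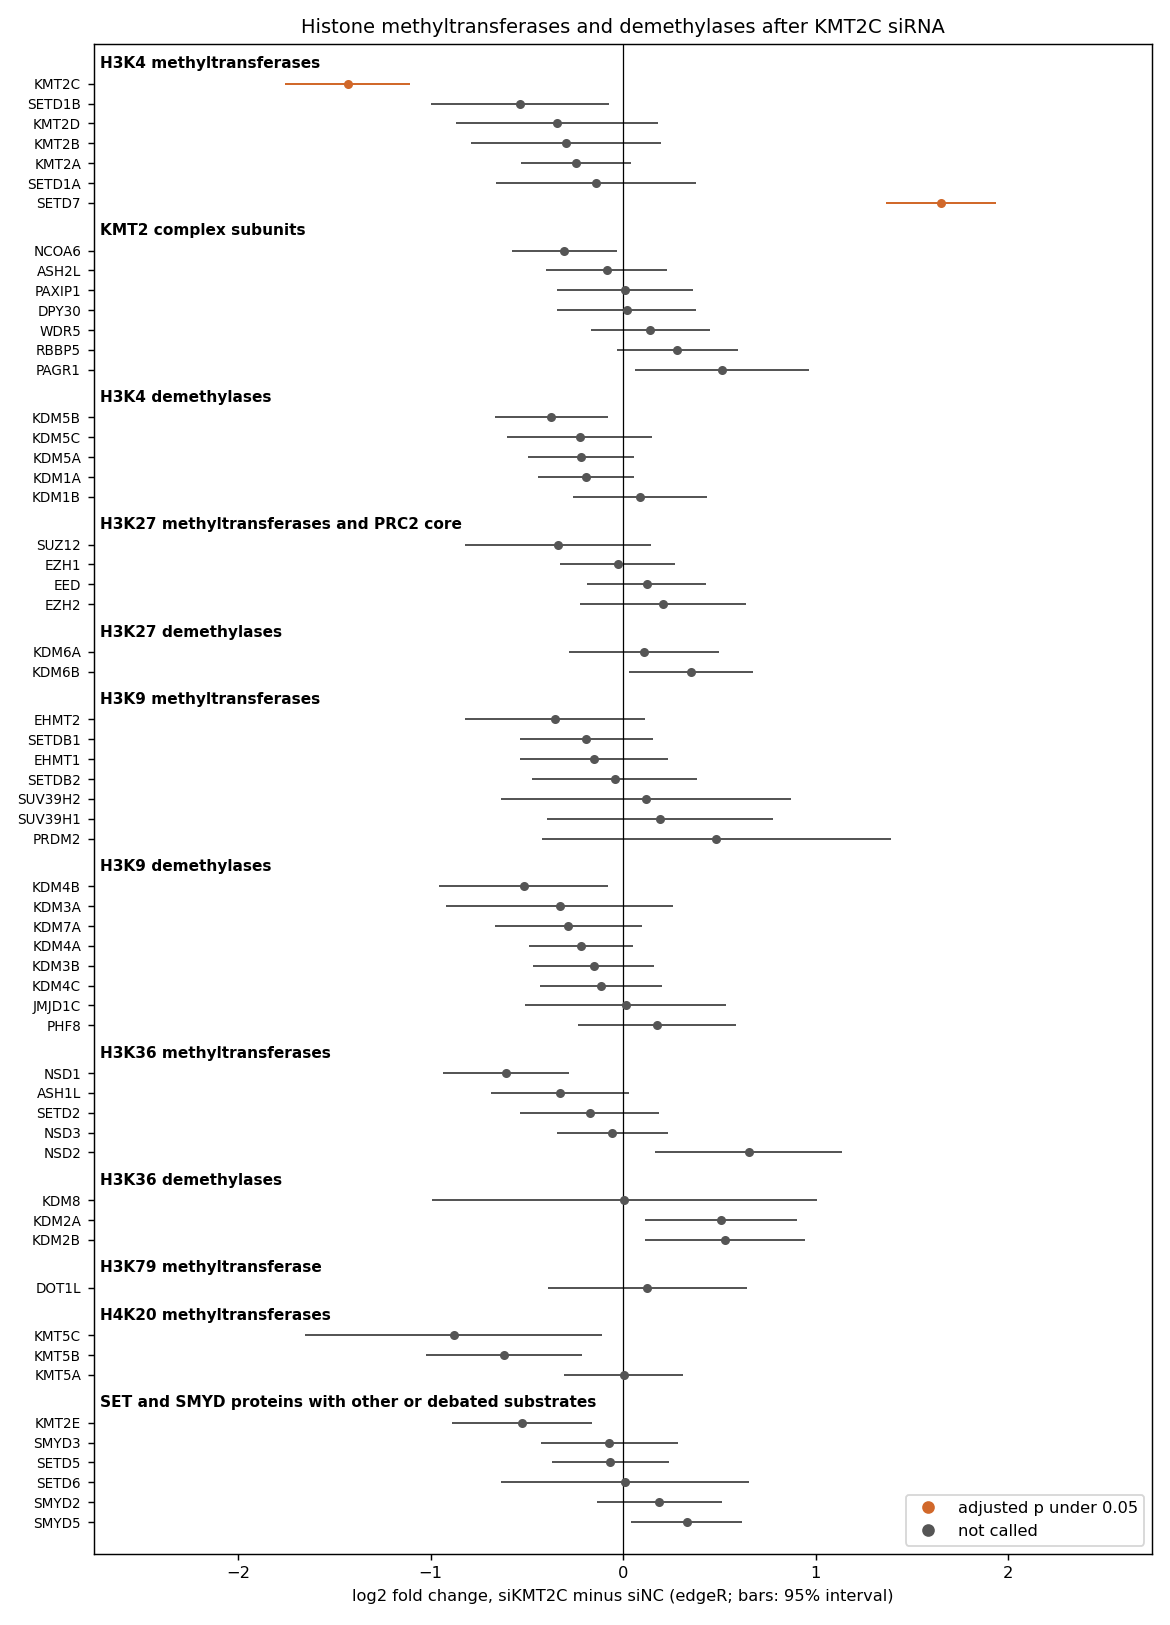
Log2 fold change of each of the 58 genes in siKMT2C against siNC with its 95% interval (edgeR, n = 3 libraries per group), grouped by the mark that the gene product writes or erases. KMT2C at -1.43 and SETD7 at 1.65 are called (orange), and the other 56 (grey) are not.

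KMT2C (ENSG00000055609, chromosome 7, 152134922 to 152436005, GRCh38) was measured at 32.0, 30.8 and 27.3 CPM in siKMT2C and at 87.9, 82.0 and 72.6 CPM in siNC. The groups did not overlap, and every siKMT2C value was under every siNC value. The log2 fold change of KMT2C was -1.43 (SE 0.14, edgeR adjusted p = 0.00786), to 37.1% of the control (95% interval 29.7% to 46.5%). The adjusted p was 0.0634, 0.0507 and 0.0593 when siKMT2C replicate 1, siKMT2C replicate 2 or siNC replicate 2 was left out, which ended the call, while the log2 fold change stayed between -1.51 and -1.36 in all 6 such fits. It was -1.21 after correction for transcript GC content and length (adjusted p = 0.00125). Per length, KMT2C moved from 38th to 55th of the 58 genes. Segments of KMT2C have near-identical copies elsewhere in the human genome, and the sources used here do not say how reads shared with them were counted.

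SETD7 (ENSG00000145391, chromosome 4, 139495941 to 139606699, GRCh38) encodes a monomethyltransferase of H3K4 that also methylates many non-histone proteins. Its level was 179, 192 and 164 CPM in siKMT2C and 58.9, 56.8 and 54.5 CPM in siNC. The siNC values lay close together, and no siKMT2C library came near them. SETD7 rose by 1.65 on the log2 scale (SE 0.12, edgeR adjusted p = 0.00374), to 314% of the control (95% interval 258% to 383%), and ranked 4th by p among all genes tested. It was called in all 14 alternative settings, with adjusted p from 0.00369 to 0.0471 when a library was left out. An exact permutation test of either gene alone gave p = 0.1, the smallest possible with 3 against 3 libraries.

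Across these libraries, genes with the 7-mer GTATAAA in the 3′ UTR were lower in siKMT2C more often than genes without it (62.6% against 49.1% with a negative log2 fold change), and genes with TCGGAGA in the coding sequence or 3′ UTR less often (45.1% against 52.1%). The 7-mers were picked on this same comparison, no allowance was made for sequence length, and the shares are a description. The sites in the target, in the member that rose and in the 3 members next in p that hold one are shown with 10 bases on each side, 7-mer in capitals, from GENCODE 29 transcripts, 5′ to 3′.
KMT2C, 3′ UTR: aaaaaatacaGTATAAAaatagttatt
KMT2C, 3′ UTR: cacaggctaaGTATAAAatgaagtttt
KMT2C, coding sequence: tcagctccagTCGGAGAatccagaaag
SETD7, 3′ UTR: tgtaccacatTCGGAGAtgccaaatga
NSD1, 3′ UTR: taatttcacgGTATAAAtaagcactgc
KMT2E, 3′ UTR: atgaacctttGTATAAAaaacaccagt
KMT2E, 3′ UTR: tgcatcttagGTATAAAaatgcaatac
KMT2E, coding sequence: gacagcagcgTCGGAGAcacagaactg
NSD2, 3′ UTR: ttatccaaaaGTATAAAttttgctttg
NSD2, 3′ UTR: aaaaaagatgGTATAAAaatggctctg
Among the members, fold changes of either sign stood beside either 7-mer: NSD1 and KMT2E were on the negative side and NSD2 on the positive. KMT2C aside, GTATAAA occurred in 13 of 57 members (22.8%, against 17.1% of 12323 genes with a 3′ UTR), 7 negative and 6 positive, with a median log2 fold change of -0.06 against -0.07 in the 44 without it. TCGGAGA occurred in 14 (24.6%, against 9.78%), of which 7 were negative and 7 positive, with a median of 0.03 against -0.07 in the 43 without it. A match of either 7-mer to the siRNAs was not tested, since their sequences were not used here.

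The other 5 H3K4 methyltransferases were all on the negative side, except for SETD1A after GC and length correction or without siNC replicate 3, and none was called. SETD1B, the catalytic subunit of a SET1 complex that trimethylates promoter H3K4, was at 30.6, 26.5 and 29.6 CPM in siKMT2C and 33.0, 38.6 and 54.4 CPM in siNC. The groups did not overlap, but the gap to siNC replicate 1 was small and siNC replicate 3 was far above the rest (log2 fold change -0.54, SE 0.20, edgeR adjusted p = 0.225; -0.31 without that library). KMT2D, the partner enzyme of KMT2C at enhancers, had values of 166, 124 and 165 CPM against 140, 183 and 253 CPM, with overlapping groups (-0.34, 95% interval -0.87 to 0.18; -0.10 without siNC replicate 3). KMT2A and KMT2B, which act at promoters of developmental genes, had log2 fold changes of -0.24 and -0.30, and SETD1A of -0.14; without siNC replicate 3 KMT2B was at -0.072 and SETD1A at 0.085. KMT2A was lower in all siKMT2C libraries and the others overlapped. After correction for transcript GC content and length KMT2A was at -0.023, KMT2B at -0.053, KMT2D at -0.020 and SETD1A at 0.073.

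None of the 7 subunits of the KMT2 complexes was called, 5 with positive and 2 with negative values. PAGR1, a subunit particular to the KMT2C and KMT2D complexes, was at 29.4, 29.2 and 36.9 CPM in siKMT2C and 20.8, 18.1 and 27.8 CPM in siNC. All siKMT2C values were higher, and replicate 3 was the highest of each group (0.52, SE 0.20, edgeR adjusted p = 0.233), and PAGR1 was called after GC and length correction (adjusted p = 0.022). NCOA6, a nuclear receptor coactivator in the same complexes, was at 94.1, 91.6 and 86.9 CPM against 107, 120 and 111 CPM (-0.31, SE 0.12, edgeR adjusted p = 0.24). NCOA6 shares exon sequence with PIGU on the same strand, so reads of the pair may have been split. RBBP5 (0.28), WDR5 (0.14), DPY30 (0.02), PAXIP1 (0.01) and ASH2L (-0.08), which form or dock to the catalytic core, were not called either. RBBP5 was higher in all siKMT2C libraries, and WDR5, DPY30, PAXIP1 and ASH2L overlapped. DPY30 shares exon sequence with MEMO1. PAXIP1 lies opposite exons of PAXIP1-AS2.

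**Figure D2:**
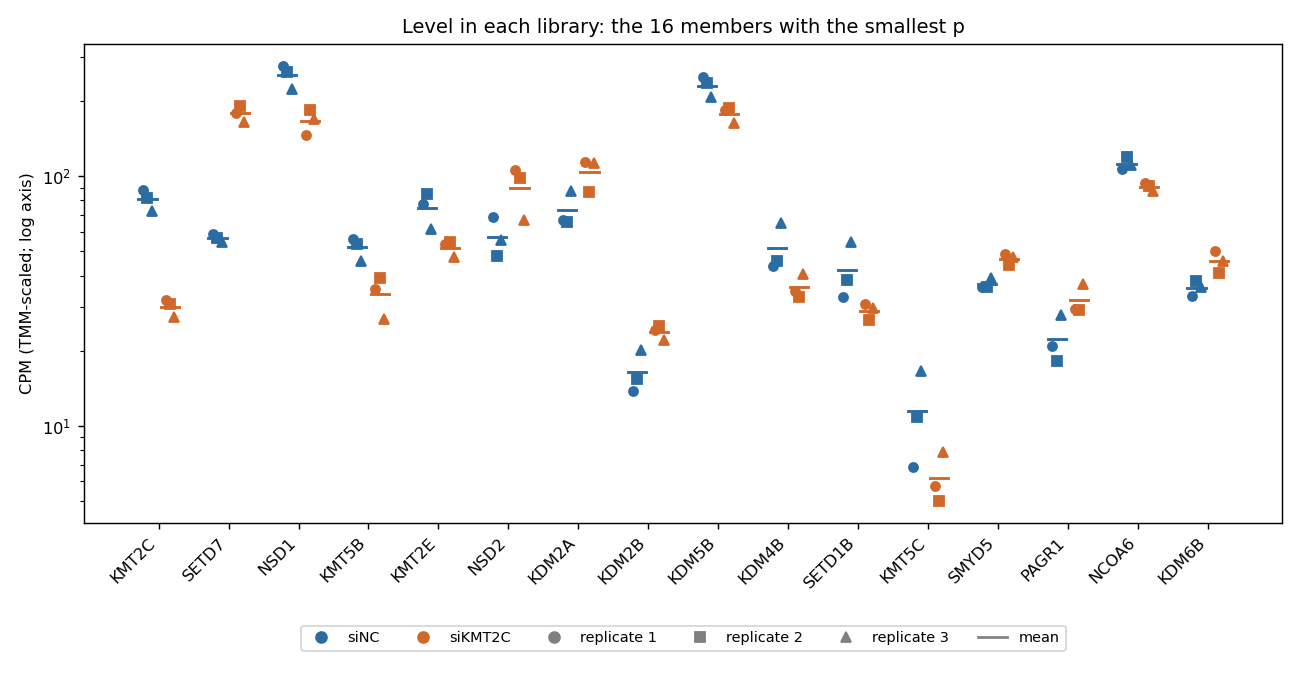
Level in each of the 6 libraries, in CPM on a log axis, of the 16 members with the smallest p; blue is siNC, orange is siKMT2C, symbols are replicates and bars are means. KMT2C and SETD7 have widely separated groups, and for KMT5C, KDM4B and SETD1B siNC replicate 3 is the highest value.

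Of the 5 H3K4 demethylases, 4 had negative values (80%, against 50.3% of all genes tested) and none was called. KDM5B, which removes H3K4 trimethylation, was at 184, 187 and 163 CPM in siKMT2C and 249, 236 and 207 CPM in siNC. It was lower in all 3 siKMT2C libraries (-0.37, SE 0.13, edgeR adjusted p = 0.192). KDM5A (-0.22) and KDM1A (-0.19), the founding flavin-dependent demethylase, also had groups that did not overlap, and KDM5C (-0.23) and KDM1B (0.09) overlapped. That is 3 of 5 without overlap, against 24.1% of all genes tested. After GC and length correction KDM5B was at -0.21, KDM5A at -0.056, KDM1A at -0.18, KDM5C at -0.078 and KDM1B at 0.044. KDM5A lies opposite exons of CCDC77. KDM1A was the most abundant of the 58 genes per length in both groups, at 23.1 ± 0.983 FPKM in siNC (SD, n = 3; the authors' values scaled to depth and gene length).

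For H3K27, the PRC2 core and the demethylases showed no call. EZH2, the catalytic subunit of dividing cells, had a log2 fold change of 0.21 (95% interval -0.22 to 0.64), EZH1, its counterpart in resting cells, of -0.03, EED of 0.12 and SUZ12 of -0.34 (-0.54 without siNC replicate 3), and the groups overlapped in all of them. KDM6B, a Jumonji demethylase that is inducible by inflammatory signals, was at 50.3, 40.9 and 45.8 CPM in siKMT2C and 33.1, 38.1 and 35.98 CPM in siNC. The siKMT2C values were all higher, by a small margin between the nearest pair (0.35, SE 0.14, edgeR adjusted p = 0.249). KDM6A, the demethylase of the KMT2C complex itself, was at 0.11 (95% interval -0.28 to 0.50).

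None of the 7 H3K9 methyltransferases was called, and none had groups that did not overlap. PRDM2, a PR-domain H3K9 methyltransferase, was at 48.4, 54.0 and 47.6 CPM in siKMT2C and 21.3, 22.8 and 63.0 CPM in siNC. A single control decided its value: siNC replicate 3 lay above every other library, and the remaining controls lay far under all siKMT2C libraries. With all libraries its log2 fold change was 0.49 (SE 0.39, edgeR adjusted p = 0.591), and without siNC replicate 3 it was 1.17 (edgeR adjusted p = 0.00886). EHMT2 (-0.35, and -0.12 without siNC replicate 3) and EHMT1 (-0.15) are the pair that dimethylates H3K9 in euchromatin. Both were on the negative side, as were SETDB1 (-0.19) and SETDB2 (-0.04). SUV39H1 (0.19) and SUV39H2 (0.12, and -0.12 without siNC replicate 3), the heterochromatin enzymes, were on the positive side, both at low levels of 7.09 to 18.6 CPM. SETDB1 and SUV39H2 share exon sequence with CERS2 and DCLRE1C on the opposite strand.

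Among the 8 H3K9 demethylases, 6 had negative values (75%, against 50.3% of all genes tested). KDM4B, which removes H3K9 and H3K36 trimethylation, was at 34.7, 32.7 and 40.4 CPM in siKMT2C and 43.5, 45.6 and 65.1 CPM in siNC. It was lower in all siKMT2C libraries (-0.52, SE 0.19, edgeR adjusted p = 0.22; -0.32 without siNC replicate 3), with replicate 3 the highest of each group, and it passed the threshold after GC and length correction at -0.32 (adjusted p = 0.049). Its relatives KDM4A (-0.22) and KDM4C (-0.12) were not called. Nor were KDM3A (-0.33, and -0.56 without siNC replicate 3), KDM3B (-0.15), KDM7A (-0.28), JMJD1C (0.01, and -0.19 without that library) and PHF8 (0.18). KDM4A was lower in all siKMT2C libraries, and KDM4C, KDM3A, KDM3B, KDM7A, JMJD1C and PHF8 overlapped.

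None of the 5 H3K36 methyltransferases was called, and NSD1 and NSD2 lay furthest from 0, on opposite sides. NSD1, which dimethylates H3K36 in intergenic chromatin, was at 146, 184 and 169 CPM in siKMT2C and 277, 262 and 223 CPM in siNC. The groups were well separated, yet NSD1 missed the threshold (-0.61, SE 0.14, edgeR adjusted p = 0.0816). It passed without siNC replicate 3 (adjusted p = 0.0287) and with DESeq2 (adjusted p = 0.0144), but not after GC and length correction (-0.41, adjusted p = 0.0709). NSD2, its paralog, had the largest positive value after SETD7, at 105, 97.9 and 66.8 CPM against 68.3, 48.0 and 55.5 CPM (0.65, SE 0.21, edgeR adjusted p = 0.171). The groups overlapped through siKMT2C replicate 3 and siNC replicate 1. ASH1L (-0.33), SETD2 (-0.17), the main enzyme of H3K36 trimethylation, and NSD3 (-0.06), which lies opposite exons of DDHD2, were not called.

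The H3K36 demethylases KDM2A and KDM2B, which bind unmethylated CpG islands, were both on the positive side. KDM2A was at 113, 86.7 and 113 CPM in siKMT2C and 67.1, 65.8 and 87.2 CPM in siNC, an overlap made by siKMT2C replicate 2 and siNC replicate 3 (0.51, SE 0.17, edgeR adjusted p = 0.189). KDM2B was at 24.2, 25.2 and 22.1 CPM against 13.8, 15.4 and 20.2 CPM, with no overlap (0.53, SE 0.18, edgeR adjusted p = 0.19). Both were called after GC and length correction (adjusted p = 0.0192 and 0.0221), and KDM2B also without siNC replicate 3 (adjusted p = 0.0462). Part of KDM2B lies opposite exons of RNF34, a more highly counted gene. KDM8 was near the detection limit, at 0.964 to 2.64 CPM, and lies opposite exons of an antisense gene, AC109449.1.

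DOT1L, the H3K79 methyltransferase, had a log2 fold change of 0.13 (edgeR adjusted p = 0.832), which became 0.37 after GC and length correction (adjusted p = 0.0444) and 0.39 without siNC replicate 3 (adjusted p = 0.207). It lies opposite exons of PLEKHJ1, whose counts came to 42.3% of those of DOT1L. For H4K20, KMT5B and KMT5C, which extend the mark to di- and trimethylation, were on the negative side, and KMT5A, which monomethylates H4K20, was at 0.0030. KMT5B was at 35.5, 38.9 and 26.8 CPM in siKMT2C and 56.2, 53.6 and 45.8 CPM in siNC. Its groups were separate (-0.62, SE 0.18, edgeR adjusted p = 0.13), and it was called with DESeq2 (adjusted p = 0.0468) and after GC and length correction (adjusted p = 0.0181). KMT5C was scarce, at 5.75, 5.01 and 7.86 CPM against 6.87, 10.9 and 16.6 CPM, and siNC replicate 1 lay among the siKMT2C values (-0.88, SE 0.33, edgeR adjusted p = 0.232; -0.52 without siNC replicate 3).

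In the last group are SET-domain proteins whose histone activity is debated or whose known substrates are mainly other proteins. KMT2E, which has a SET domain but no established methyltransferase activity, was at 53.6, 54.3 and 47.4 CPM in siKMT2C and 77.5, 84.8 and 61.3 CPM in siNC. All siKMT2C values were lower (-0.53, SE 0.16, edgeR adjusted p = 0.145), and KMT2E was called without siNC replicate 3 (adjusted p = 0.0333) and after GC and length correction (adjusted p = 0.0251); it lies opposite exons of SRPK2. SMYD5 was at 48.7, 44.0 and 47.3 CPM against 36.1, 36.1 and 39.2 CPM, higher in all siKMT2C libraries (0.33, SE 0.13, edgeR adjusted p = 0.232). SMYD2 (0.19), SMYD3 (-0.07), SETD5 (-0.07) and SETD6 (0.01) overlapped between groups, and SETD6 overlaps exons of CNOT1, which had far more counts.

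A ratio of paralogs within a library does not depend on how libraries are scaled. Of 15 pairs chosen by family, 4 had ratios that did not overlap between groups, KMT2C/KMT2D with the siRNA target among them. Each had an exact two-sided permutation p = 0.1, the smallest possible, and 0.375 after adjustment over the pairs. Of single genes tested, 24.1% did not overlap, and the share over other pairs of genes was not computed. The FPKM ratio of KMT2C to KMT2D was 0.140, 0.180 and 0.119 in siKMT2C and 0.455, 0.323 and 0.208 in siNC, where replicate 3 was closest to the siKMT2C libraries; the transcripts of KMT2C and KMT2D hold 45.02% and 59.1% GC. As a share of the summed FPKM of KMT2C and KMT2D, KMT2C made up 12.3%, 15.2% and 10.7% in siKMT2C and 31.3%, 24.4% and 17.2% in siNC. NSD1 exceeded NSD2 in every library, by a mean of 2.61 times in siKMT2C and 6.08 times in siNC, a difference of -1.25 in the mean log2 ratio, against -1.12 for KMT2C to KMT2D. Without siNC replicate 3 the order of these differences was the other way, at -1.33 and -1.41. The ratios of SETD1A to SETD1B (0.38) and KDM5A to KDM5B (0.15) differed less, also on the log2 scale. EZH2 to EZH1, KDM6A to KDM6B and the other 9 pairs overlapped.

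**Figure D3:**
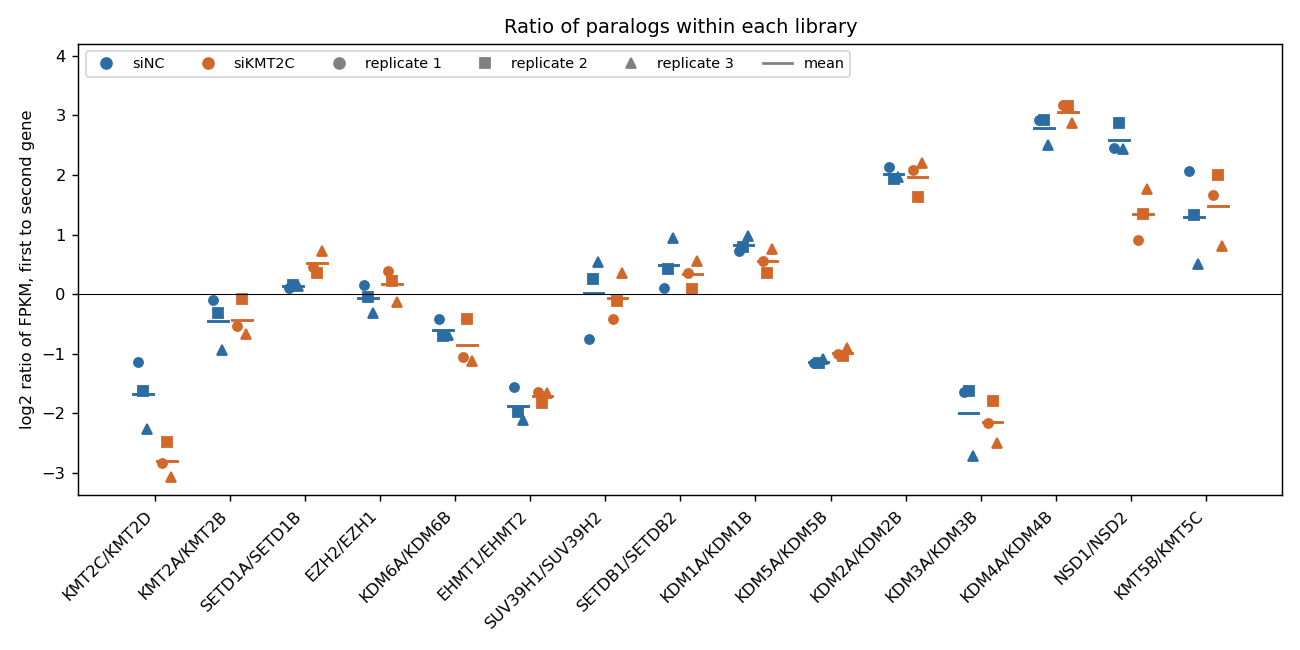
Log2 ratio of the FPKM of the first to the second gene of each of 15 paralog pairs, in each library; blue is siNC, orange is siKMT2C, symbols are replicates and bars are means. The groups are separate for KMT2C/KMT2D, SETD1A/SETD1B, KDM5A/KDM5B and NSD1/NSD2.

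Per length, the 58 genes spanned from 0.159 FPKM for KDM8 to 23.1 FPKM for KDM1A in siNC, with a median of 3.97, against 3.13 over all genes tested. The order was KDM1A, KDM4A, WDR5, KDM5B, DPY30, PAGR1 and KDM1B at the top and PHF8, KMT5C, KDM2B, SETD6 and KDM8 at the bottom. Neighbours in this order mostly could not be told apart: only 5 of the 57 neighbouring pairs had siNC ranges that did not overlap, namely KDM1A over KDM4A, KDM1B over NSD1, SMYD5 over NSD3, SETD7 over ASH2L and SETD6 over KDM8. SETD7 went from 31st to 8th in siKMT2C, at 10.7 ± 0.748 FPKM against 3.46 ± 0.130 in siNC (SD, n = 3). In bulk RNA, fewer cells with a transcript and less of it per cell cannot be told apart.

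**Figure D4:**
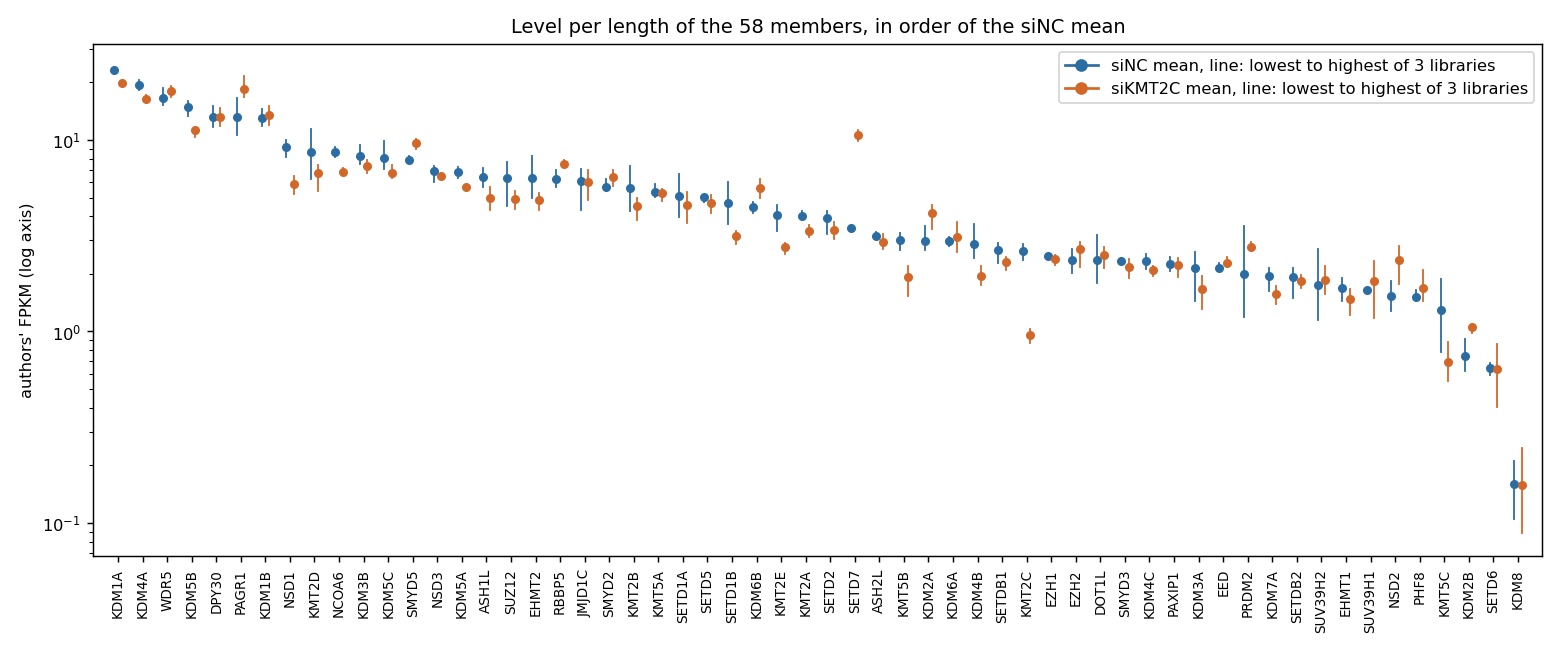
Level per length of the 58 members as the authors' FPKM on a log axis, in order of the siNC mean; points are means and lines run from the lowest to the highest of 3 libraries (blue siNC, orange siKMT2C). KMT2C drops from 2.63 to 0.957 and SETD7 rises from 3.46 to 10.7, while most other pairs of lines overlap.

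The position of siNC replicate 3 followed base composition. In the 29 members with the more GC-rich transcripts this library was above the mean of the other controls in 26, by a median of 0.26 on the log2 scale, and in the 29 others it was below in 27, by a median of -0.22. Across the 58 members the deviation and the GC content had a Pearson correlation of 0.76, a description over genes of 1 library. KMT2C deviated by -0.22 and SETD7 by -0.09, while PRDM2 stood far off the trend at 1.51. Without siNC replicate 3, 6 members were called (KMT2C, SETD7, PRDM2, NSD1, KDM2B and KMT2E), or 10.3%, against 4.04% of all genes. After GC and length correction 9 were called (15.5%), against 9.21% of all genes. Of the 9, KMT2C, KDM4B, KMT5B and KMT2E were lower, and SETD7, PAGR1, KDM2A, KDM2B and DOT1L higher. KMT2C aside, 5 of 57 were called without siNC replicate 3 and 8 of 57 after GC and length correction.

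**Figure D5:**
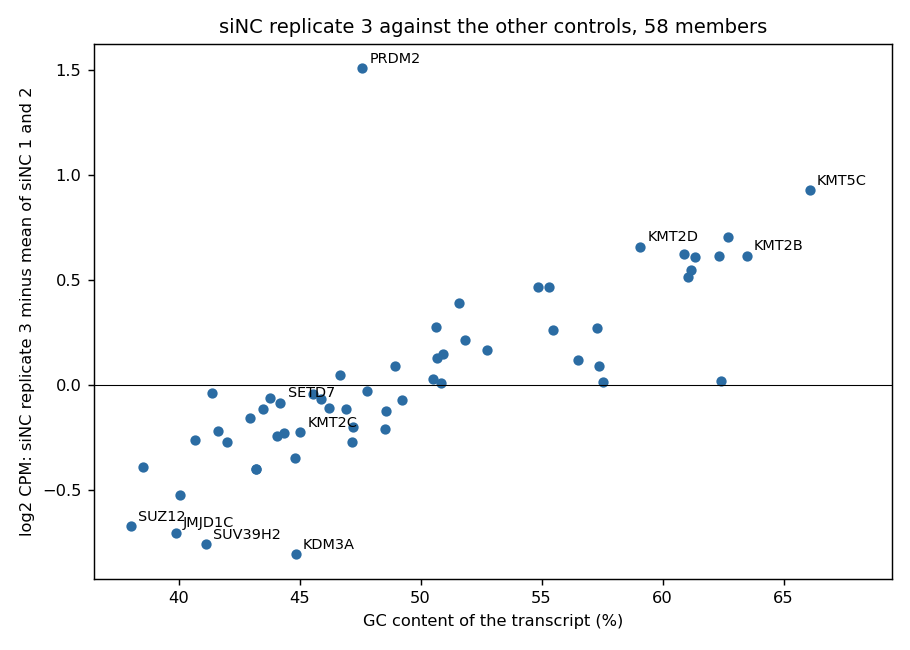
Deviation of siNC replicate 3 from the mean of siNC replicates 1 and 2, in log2 CPM, against the GC content in percent of each member's transcript; each point is 1 of the 58 genes. Of the 29 more GC-rich members 26 lie above 0, and of the 29 others 27 lie below, with PRDM2 far above the trend.

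Of 115 other genes of histone methylation and related functions, none was called by edgeR (17 had an unadjusted p under 0.05, or 14.8%, against 16.9% of all genes). DESeq2 called 6 of the 115, and 5.67% of all genes. Without siNC replicate 3, 8 of the 115 were called, and 4.04% of all genes. Of the 8, 4 were lower (HCFC2, KAT6B, PCGF5 and MTAP) and 4 higher, PRMT1, PRMT6 and HDAC1 among them. Among KMT2 and SET1 complex partners HCFC2 was at -0.57, HCFC1 at -0.30 and BOD1 at 0.32. The 9 arginine methyltransferase genes had a median of 0.20 with 8 positive (7 after GC and length correction, and 6 to 8 when a library was left out), PRMT1 (0.53, edgeR adjusted p = 0.0925), PRMT6 (0.73) and PRMT3 (0.33) foremost. The 9 acetyltransferases had a median of -0.15 with 8 negative, but of -0.0035 with 4 positive after GC and length correction and 0 to 4 positive when a library was left out, among them KAT6B (-0.56), EP300 (-0.31), which acts at enhancers as KMT2C does, and KAT2B (-0.44). Polycomb genes had medians of -0.10 for PRC1 (0.068 without siNC replicate 3), where PCGF5 (-0.72), CBX7 (-0.49) and PHC3 (-0.27) had the smallest p, and -0.11 for PRC2 accessory subunits, where MTF2 (-0.36), RBBP4 (-0.13) and RBBP7 (-0.11) did.

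Of the KDM1A corepressor, HDAC1 was at 0.51 and RCOR3 at -0.40. Of the HP1 and H3K9 partners the smallest p were those of CBX5 (-0.25), CBX3 (0.35) and TASOR (0.34), and of the DOT1L partners AFF1 (0.29), ELL2 (-0.09) and ELL (-0.08). Of other lysine methyltransferases and Jumonji proteins they were PRDM4 (-0.31), PRDM15 (0.48) and PRDM10 (-0.37), and HR (-1.64, SE 0.39, edgeR adjusted p = 0.0899), HIF1AN (-0.35) and RIOX2 (0.29). Methyl donor genes had MTAP (-1.13, edgeR adjusted p = 0.146, and 0.0124 without siNC replicate 3), AHCY (0.17) and MAT2A (-0.16) foremost. All 13 proliferation genes had positive values, median 0.29 and largest 0.74. With scaling by library size alone or after GC and length correction 12 of 13 were positive, and 10 to 13 when a library was left out. MCM3 (0.43), PCNA (0.39) and MCM2 (0.36) had the smallest p. An unadjusted p under 0.05 was found for 5 of the 13 (38.5%, against 16.9% of all genes tested). By edgeR with all libraries none was called. After GC and length correction 3 were called (9.21% of all genes), and with the replicate block 1 (6.43% of all genes). Of the 58 members 25 had positive and 33 negative values, and the part of proliferation in them was not tested.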

How the data were processed

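RNA-seq of 6 Ker-CT libraries was used, 3 per group. The authors deposited one table with read counts and FPKM per gene, per the file headers. CASAVA 1.8, TopHat2 2.0.6 and the mouse build mm10 are named in the submitters' processing notes, although the identifiers are human Ensembl. The counter, annotation, strand setting and human build are not given in the sources used here. Deposited FPKM were the counts rescaled by a fixed length per gene (largest deviation 1.09e-05 over 11429 genes with at least 50 counts per library). Positions, transcripts and exon overlaps come from GENCODE 29 on GRCh38, not the authors' build.

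Counts were tested with edgeR 4.0.16 in R 4.3.3 (filterByExpr, TMM scaling, robust quasi-likelihood F test), with adjustment over all 15063 genes. SE is the absolute log2 fold change over the square root of F. On data simulated for this comparison (14811 genes in the step) the fit called 98.4% of 4-fold, 43.3% of 2-fold and 6.06% of 1.5-fold changes, with 3 false calls. Paralog ratios used FPKM and exact two-sided permutation tests. Alternatives were DESeq2 1.42.0, limma-voom 3.58.1, RLE scaling, scaling by library size alone, a replicate block, testing every gene with a count, a minimum CPM of 1 in 3 libraries, and leaving out each library. A correction by loess (span 0.3) on the GC content and length of transcripts was added after seeing the data. All members are named; every library is given for KMT2C, each called member and the 14 others with the smallest p, and of other lists the called genes, otherwise the 3 with the smallest p, except for a result not reported here. Members, lists and tests were chosen with earlier results of these data known.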

Additional observations from a re-analysis of the deposited data

How the results depend on the processing

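The count of genes called, 226, was 805 with DESeq2, 968 with the replicate block and 1387 after GC and length correction, and 16 to 620 when a library was left out, the highest without siNC replicate 3. The count of members called, 2, was 4 with DESeq2, 7 with the replicate block and 9 after GC and length correction, and 1 to 6 when a library was left out. The 115 other genes of histone methylation, 0 by edgeR, had 6, 6 and 15, and 0 to 8. In the same settings 5.67%, 6.43% and 9.21% of all genes were called, and 0.104% to 4.04%. KMT2C kept its direction in every setting, with a log2 fold change of -1.51 to -1.36 when a library was left out.

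Whether replicate numbers pair the libraries could not be decided. Same-numbered libraries correlated at 0.02, 0.11 and 0.39 in their deviations from the group means, the last being the largest value of any pair. Differently numbered libraries correlated at -0.36 to 0.32, and not every library correlated best with its own number. Deviations from a mean of 3 libraries constrain one another, so these values cannot settle the question. The block added NSD1, NSD2, KDM2A, KMT5B and KMT2E to the members called.

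Of the 57 members other than KMT2C, 39 kept their sign in every setting. Leaving out a library gave log2 fold changes of -0.30 to 0.085 for SETD1A, -0.077 to 0.12 for DPY30, -0.067 to 0.11 for PAXIP1, -0.0033 to 0.18 for KDM1B, -0.076 to 0.022 for EZH1, -0.050 to 0.23 for KDM6A, -0.0063 to 0.44 for SUV39H1, -0.12 to 0.59 for SUV39H2, -0.21 to 0.047 for SETDB2, -0.19 to 0.15 for JMJD1C, -0.0047 to 0.27 for PHF8, -0.47 to 0.29 for KDM8, -0.034 to 0.39 for DOT1L, -0.039 to 0.070 for KMT5A, -0.13 to 0.018 for SETD5, -0.28 to 0.26 for SETD6 and -0.16 to 0.020 for SMYD3. With library size alone DPY30 was at -0.010, PAXIP1 -0.020, JMJD1C -0.014, KDM8 -0.020, KMT5A -0.025 and SETD6 -0.021. With limma-voom KDM8 was at -0.065 and SETD6 at -0.065, and with the replicate block at -0.030 and -0.050. GC and length correction gave 0.073 for SETD1A, -0.098 for DPY30, 0.041 for EZH1, 0.0021 for SETDB2, 0.11 for NSD3, 0.027 for SETD5 and -0.014 for SETD6. Differences of log2 paralog ratios that turned ran from -0.22 to 0.20 for KMT2A/KMT2B, -0.46 to 0.18 for SUV39H1/SUV39H2, -0.35 to 0.068 for SETDB1/SETDB2, -0.15 to 0.13 for KDM2A/KDM2B, -0.52 to 0.030 for KDM3A/KDM3B and -0.22 to 0.57 for KMT5B/KMT5C. The cause of these changes was not tested. In simulated data only 6.06% of 1.5-fold changes were called, so the lack of a call alone does not exclude a change of that size. The 95% interval of each member bounds its own change. On the log2 scale it ran from -0.31 to 0.31 for KMT5A and from -1.65 to -0.11 for KMT5C.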

Other observations

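The promoters of the members were richer in CpG than those of most genes. RefSeq promoters (GRCh38.p14, 250 bases before to 50 after the start, the first listed start of a gene) were matched by symbol for 51 of the 58 members. They held a median of 29 CpG dinucleotides, with quartiles of 21.5 and 37.5, against a median of 14 over 27305 genes, and a median GC content of 66.0% against 58.3%. The comparison genes include non-coding and unexpressed ones, so this is a description of the list and was not tested.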
